A study of Homo sapiens with 2 samples.

Results

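Histone lysine methyltransferases, the enzymes that place methyl groups on lysines of histones, were described here together with the core partners of their complexes in PLC/PRF/5 cells given JIB-04. The 35 genes were taken by symbol from a list and matched to the files by Entrez ID. All 35 were found among the 27685 genes of the files, and all 35 had a level of at least 1 TPM (transcript abundance scaled to a fixed total per library) in either library, the limit for a gene to be described. PLC/PRF/5 is an established human hepatocellular carcinoma line that carries integrated hepatitis B virus DNA. One culture received 6 µM JIB-04, a small molecule inhibitor of the Jumonji family of histone demethylases, for 24 h, and the other received the solvent DMSO for 24 h. Both conditions shared the cell line, the stranded library kit that selects polyadenylated RNA, and the processing. One label of the control sample calls it untreated, whereas its title and the treatment protocol name DMSO.

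Methylation of a histone lysine does not change its charge, and acts mainly through the proteins that bind it. Methylation of H3K4, H3K36 and H3K79 is found at active genes, H3K4 at promoters and enhancers and the others along transcribed stretches, whereas H3K27 and H3K9 methylation mark Polycomb-silenced genes and heterochromatin, and H4K20 methylation is tied to chromosome condensation and DNA replication. The enzymes draw the methyl group from S-adenosylmethionine, and the Jumonji demethylases that JIB-04 inhibits remove it again from some of these lysines. EZH2, the best studied of these enzymes in liver cancer, is a gene of dividing cells.

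With 1 library per condition there was no replicate and no test. The libraries held about 23721989 estimated fragments with JIB-04 and 28187793 with DMSO. Each ratio below is given on the log2 scale as JIB-04 over DMSO, from TPM + 1, and the interval after it is a 95% interval for counting error of the estimated fragments only, which leaves out the difference between cultures. In RNA from a whole culture, fewer cells of a type and less RNA per cell cannot be told apart. Of 10 hepatocyte and hepatoma marker genes all 10 were described, with a summed level of 5915 TPM in the JIB-04 library and 9382 TPM in the DMSO library. The keratins KRT8 and KRT18 made up 4126 TPM of that sum with JIB-04 and 7696 TPM with DMSO, and the other 8 markers summed to 1789 TPM with JIB-04 and 1685 TPM with DMSO, 4 of them higher and 4 lower with JIB-04. TTR had the highest log2 ratio of the list, 0.72, with 7.06 TPM with JIB-04 and 3.91 TPM with DMSO, and APOB the lowest, -1.62, with 32.9 TPM with JIB-04 and 103 TPM with DMSO. FGB was the most abundant marker after the keratins, at 961 TPM with JIB-04 and 771 TPM with DMSO, whereas ALB had 4.53 TPM with JIB-04 and 9.74 TPM with DMSO. Of 10 markers of blood, endothelial, stromal and biliary cells 4 were described (CD14, CD68, COL1A1 and COL3A1), with a summed level of 150 TPM with JIB-04 and 120 TPM with DMSO over the list. CD68, which many cell types express in lysosomes, gave most of that sum, with 137 TPM with JIB-04 and 97.0 TPM with DMSO, and COL1A1 had 10.6 TPM with JIB-04 and 16.0 TPM with DMSO. The other 6, PTPRC, CD3E, PECAM1, VWF, ACTA2 and KRT19, were below the limit of 1 TPM in both libraries, with PTPRC at 0 in both.

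Promoter sequences are shown first for 4 members whose windows held the letters of an E2F site, since E2F factors control many genes of DNA replication and since EZH2 and SUZ12, which are among them, were lower with JIB-04. They run from 250 bases before to 50 bases after the annotated start, 5′ to 3′ on the gene's strand, from RefSeq on GRCh38.p14. Capitals mark the E2F letters. The letters searched were TTTCCCGC, TTTGGCGC, TTTGCCGC and TTTCGCGC on both strands. The EZH2 window shown is chr7:148884242-148884541 on the minus strand, with the letters from base 2 of the transcript. A second EZH2 window, chr7:148883436-148883735, held no E2F letters. The SUZ12 window is chr17:31936757-31937056 on the plus strand, with the letters 189 bases before the start. The NSD2 window is chr4:1871143-1871442 on the plus strand, with the letters 77 bases before the start. The EZH1 window is chr17:42744991-42745290 on the minus strand, where the letters read on the opposite strand, 115 bases before the start.
EZH2: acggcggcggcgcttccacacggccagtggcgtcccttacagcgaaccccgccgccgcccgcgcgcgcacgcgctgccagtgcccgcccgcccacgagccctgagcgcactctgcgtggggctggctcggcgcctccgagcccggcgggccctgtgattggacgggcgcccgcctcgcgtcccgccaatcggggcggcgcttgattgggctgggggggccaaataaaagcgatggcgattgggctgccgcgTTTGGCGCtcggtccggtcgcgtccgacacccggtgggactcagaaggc
SUZ12: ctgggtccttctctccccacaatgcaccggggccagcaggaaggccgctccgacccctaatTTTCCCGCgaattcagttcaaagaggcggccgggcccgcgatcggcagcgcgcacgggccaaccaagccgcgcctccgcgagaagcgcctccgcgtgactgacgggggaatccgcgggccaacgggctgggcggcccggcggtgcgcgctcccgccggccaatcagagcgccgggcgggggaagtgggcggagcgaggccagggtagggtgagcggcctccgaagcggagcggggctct
NSD2: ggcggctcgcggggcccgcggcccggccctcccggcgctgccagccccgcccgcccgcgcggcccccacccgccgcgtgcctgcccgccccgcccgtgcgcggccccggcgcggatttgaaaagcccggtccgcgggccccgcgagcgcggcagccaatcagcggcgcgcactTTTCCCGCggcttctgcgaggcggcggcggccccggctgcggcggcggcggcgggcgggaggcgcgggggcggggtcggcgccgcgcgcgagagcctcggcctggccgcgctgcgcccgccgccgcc
EZH1: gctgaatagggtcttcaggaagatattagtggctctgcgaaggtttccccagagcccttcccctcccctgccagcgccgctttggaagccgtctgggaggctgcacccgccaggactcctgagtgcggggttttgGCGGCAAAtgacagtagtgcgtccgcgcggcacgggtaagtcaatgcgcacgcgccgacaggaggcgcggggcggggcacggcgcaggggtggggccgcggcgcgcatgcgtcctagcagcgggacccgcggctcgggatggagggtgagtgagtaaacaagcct

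RefSeq promoter entries were matched for 30 members, with 46 entries in all, and DOT1L, SETD1B, ASH2L, NSD3 and DPY30 were not matched. E2F letters stood in 4 of the 46 entries (8.70%), against 3.31% of all 35116 promoters of the same length. Of these 4 genes EZH2, SUZ12 and NSD2 were lower with JIB-04 and EZH1 was higher. Of all 35 members 24 had a log2 ratio below 0, so the direction in these 4 genes does not set them apart. A link between the letters and the levels was not tested. The letters CCAAT, read on both strands, stood in 34.8% of the entries and in 34.6% of all promoters. TTTGAA, the letters of a CHR element found in genes of late cell cycle, stood in 13.0% of the entries and in 15.2% of all promoters. The hypoxia response core, ACGTG or GCGTG on both strands, stood in 71.7% of the entries and in 48.4% of all promoters. All promoters were not matched to the members by level or base content, so these shares do not show enrichment of any motif. No E2F letters were in either window of SUV39H1. Matches of different kinds may overlap, and a match describes letters only.

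As a group, the writers and their core partners differed little in level between the libraries. Their summed level was 1202 TPM with JIB-04 and 1292 TPM with DMSO, and the median gene had 26.9 TPM with JIB-04 and 29.5 TPM with DMSO. Levels ran from 1.93 to 124 TPM, and 34 of 35 genes had a mean of at least 5 TPM. The log2 ratios had a median of -0.20 and ran from -0.87 to 1.02, with an SD of 0.45 across genes, whereas the 14450 described genes had a median of -0.15 and an SD of 0.70. One member (2.86%) was at least 2-fold higher with JIB-04, against 5.99% of all described genes, and 0 (0%) were at least 2-fold lower, against 6.88%. Among genes with a mean of at least 5 TPM these backgrounds were 5.09% higher and 6.55% lower. At 1.5-fold, 3 members (8.57%) were higher, against 12.8% of all genes, and 4 (11.4%) were lower, against 21.0%. The counting interval lay above 0 in 8 members (22.9%), against 27.7% of all genes, and below 0 in 21 (60%), against 46.2%. The interval narrows with more fragments, and only 11365 of the 14450 described genes had a mean of at least 5 TPM. No background matched by level was computed for these shares, so they are not directly comparable. Before any shift 11 members were above 0 and 24 below. KMT5B, the member nearest 0 at -0.01, had a higher log2 ratio than 59.8% of all described genes. Against the median of all described genes, 17 members lay above and 18 below. When log2 ratios were shifted to centre well expressed genes at 0, a shift of 0.15, 17 members were above 0 and 18 below. The shares of all genes past 2-fold then became 7.85% higher and 4.34% lower.

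**Figure D1:**
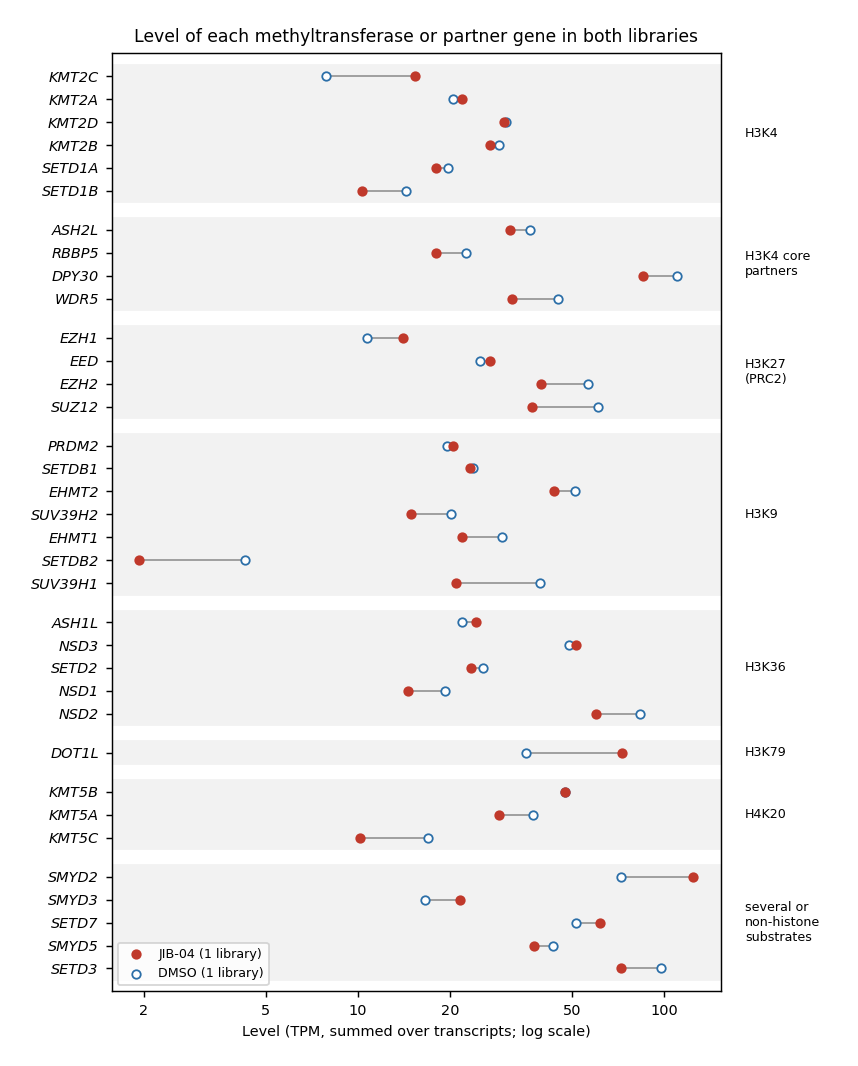
Level of each of the 35 genes in TPM (log scale), with filled points for the JIB-04 library and open points for the DMSO library, 1 library each, in rows grouped by the mark written. The widest gaps are at SETDB2, DOT1L, KMT2C, SUV39H1 and SMYD2, and KMT5B and KMT2D show the points of both libraries on top of each other.

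DOT1L was the member with the largest log2 ratio. It encodes the H3K79 methyltransferase, the only known histone lysine writer in the list without a SET domain. DOT1L (chr19:2164148-2232577, plus strand, hg19) had 72.8 TPM with JIB-04 and 35.4 TPM with DMSO, a log2 ratio of 1.02 (0.96 to 1.08). It ranked number 3 among the 35 genes by level with JIB-04 and number 16 with DMSO. The interval spans the 2-fold line, so its place past that line was not resolved even for counting error. All 28 exons of its annotated transcript had higher coverage with JIB-04, after scaling by library, by 1.56-fold to 2.52-fold with a median of 2.01. The gene shares 8.89% of its exonic bases with PLEKHJ1 on the opposite strand, which was lower with JIB-04 (47.1 TPM) than with DMSO (65.0 TPM), and the deposited values were made with a strand setting.

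The DOT1L partners MLLT1, MLLT3, MLLT10, AFF1 and AFF4 link DOT1L to chromatin readers and to the machinery of transcript elongation. MLLT3 had 7.46 TPM with JIB-04 and 3.06 TPM with DMSO, a log2 ratio of 1.06. It was the 1 partner of 5 (20%) at least 2-fold higher, against 5.99% of all described genes. MLLT1 had the lowest log2 ratio of the 5, with 35.5 TPM with JIB-04 and 36.1 TPM with DMSO. The median log2 ratio of the 5 partners was 0.37, beside the median of -0.15 over all described genes.

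Among the 6 H3K4 methyltransferases, KMT2C stood apart from the others. KMT2C and KMT2D place the single methyl group of enhancers. KMT2C (chr7:151832010-152133090, minus strand) had 15.3 TPM with JIB-04 and 7.87 TPM with DMSO, a log2 ratio of 0.88 (0.80 to 0.96). KMT2D, its paralog, had 30.0 TPM with JIB-04 and 30.3 TPM with DMSO, and its interval spanned 0. The ratio of KMT2C to KMT2D was therefore 0.510 with JIB-04 and 0.260 with DMSO, 1.96-fold different (1.83 to 2.11). KMT2D was still the more abundant of the pair in both libraries.

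The ratio between libraries varied along KMT2C. Of its 59 exons 53 had higher scaled coverage with JIB-04, with ratios of 0.772 to 3.37 and a median of 1.91. Exon 7 had a coverage of 53.1 reads per base with JIB-04 and 74.1 with DMSO, whereas exon 8 had 16.8 with JIB-04 and 13.2 with DMSO. Near-identical copies of part of KMT2C are known elsewhere in the genome, so reads of exon 7 may not all belong to this gene. Without exon 7 the ratio of scaled coverage was 1.99. In a division made after the values were seen, exons 1 to 35 gave a ratio of 1.41 and exons 36 to 59 gave 2.12, with all 24 exons from 36 on higher with JIB-04. In KMT2D 25 of 54 exons were higher with JIB-04, with a median ratio of 0.974.

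A higher ratio in later exons was common to these libraries. Each gene with 1 annotated transcript, at least 20 exons and a mean of at least 5 TPM was divided at its middle exon, and in 359 of 502 such genes (71.5%) the JIB-04 over DMSO ratio was higher in the later exons, with a median difference of 0.09 on the log2 scale. That difference was 0.67 in KMT2C, 0.28 in KMT2D and 0.19 in both ASH1L and KMT2B, and -0.06 in DOT1L. In KMT2C the ratio was 1.33 over the first 29 exons, which include exon 7, and 2.12 over the others, and in KMT2D it was 0.849 over the first 27 and 1.03 over the others. Coverage along transcripts thus differed between the libraries, and its part in the level of KMT2C was not tested. Both parts of KMT2C were higher with JIB-04.

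**Figure D2:**
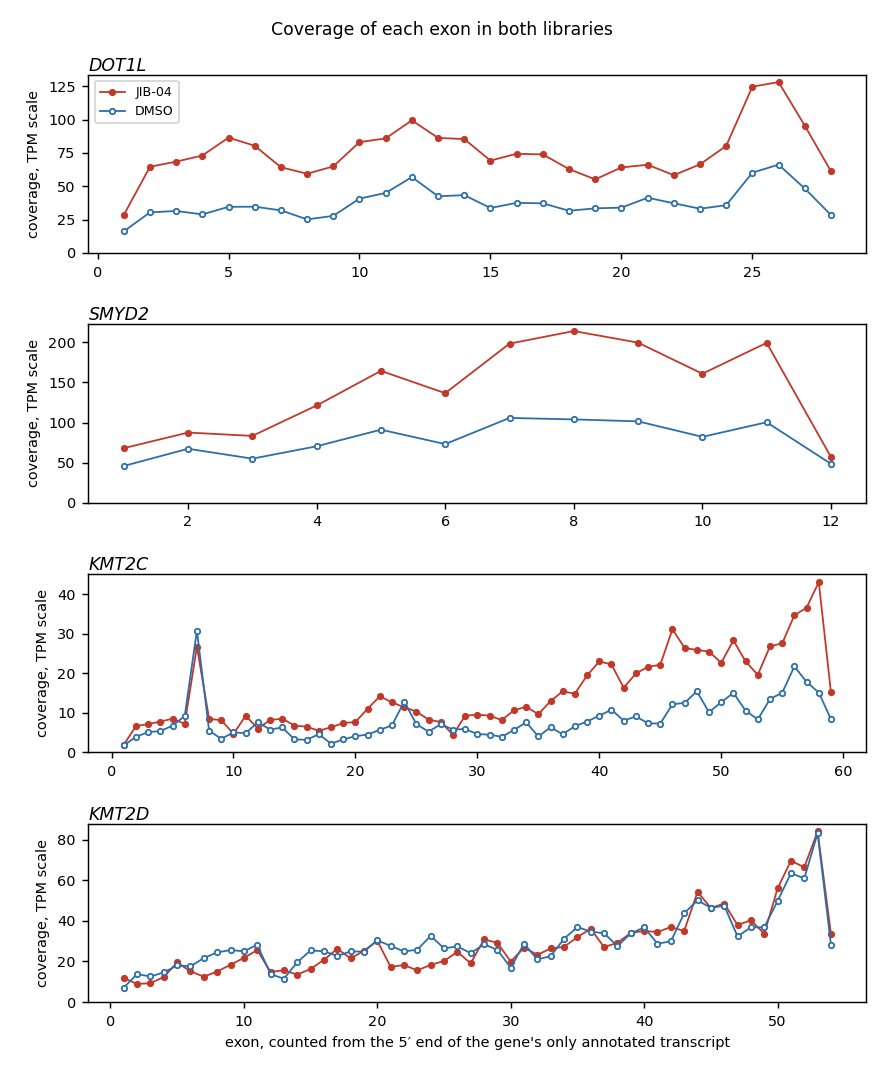
Coverage of each exon, scaled to the gene's TPM per library, along DOT1L, SMYD2, KMT2C and KMT2D, with filled points for JIB-04 and open points for DMSO. The JIB-04 line lies above the DMSO line over all 28 exons of DOT1L and all 12 of SMYD2, parts from it most in the later exons of KMT2C, and crosses it repeatedly in KMT2D.

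The other H3K4 enzymes differed less between libraries. KMT2A, which methylates H3K4 at HOX and other developmental genes, had 21.8 TPM with JIB-04 and 20.5 TPM with DMSO, a log2 ratio of 0.09 (0.03 to 0.15). KMT2B, its paralog, had 27.03 TPM with JIB-04 and 28.8 TPM with DMSO. SETD1A and SETD1B, which place the 3 methyl groups of active promoters, both had a log2 ratio below 0, which for SETD1A became 0.02 after well expressed genes were centred at 0. SETD1A had 17.9 TPM with JIB-04 and 19.6 TPM with DMSO. SETD1B had 10.3 TPM with JIB-04 and 14.4 TPM with DMSO, a log2 ratio of -0.44 (-0.56 to -0.33), with 3 of 17 exons higher with JIB-04. The 6 enzymes summed to 122 TPM with JIB-04 and 121 TPM with DMSO.

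All 4 shared subunits of these complexes were lower with JIB-04, with ASH2L nearest to 0 at -0.06 on the log2 scale after well expressed genes were centred. WDR5, the scaffold that holds the complex together, had 31.9 TPM with JIB-04 and 44.9 TPM with DMSO, a log2 ratio of -0.48 (-0.59 to -0.37). RBBP5, which binds the catalytic domain with ASH2L, had 17.9 TPM with JIB-04 and 22.6 TPM with DMSO. ASH2L had 31.3 TPM with JIB-04 and 36.3 TPM with DMSO, and DPY30, which binds ASH2L, had 85.3 TPM with JIB-04 and 110 TPM with DMSO. The 4 subunits summed to 166 TPM with JIB-04 and 213 TPM with DMSO. All 4 intervals lay below 0, as did those of 46.2% of all described genes. Of 9 further partners of these complexes, 1 (11.1%) was at least 2-fold lower, against 6.88% of all described genes. That gene was PAGR1, at 11.4 TPM with JIB-04 and 33.5 TPM with DMSO. At least 2-fold higher were 0 of the 9, against 5.99% of all described genes. KMT2E, a relative of the KMT2 enzymes that binds H3K4 methylation, had the highest log2 ratio of the 9, at 59.8 TPM with JIB-04 and 39.5 TPM with DMSO. Their median log2 ratio was -0.38.

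The core of PRC2, the complex that methylates H3K27, was split. EZH2, its main catalytic subunit in dividing cells, had 39.6 TPM with JIB-04 and 56.2 TPM with DMSO, a log2 ratio of -0.50 (-0.61 to -0.39). EZH1, the weaker catalytic subunit that prevails in resting cells, had 14.0 TPM with JIB-04 and 10.7 TPM with DMSO, a log2 ratio of 0.36 (0.21 to 0.51). EZH2 therefore exceeded EZH1 by 2.82-fold with JIB-04 and by 5.25-fold with DMSO, a ratio of 0.538 between libraries (0.469 to 0.617). SUZ12, which every form of PRC2 needs for assembly, had 36.9 TPM with JIB-04 and 60.8 TPM with DMSO, a log2 ratio of -0.71 (-0.79 to -0.62). EED, which binds the finished mark, had 26.9 TPM with JIB-04 and 25.1 TPM with DMSO, and its interval spanned 0. The 4 genes summed to 117 TPM with JIB-04 and 153 TPM with DMSO.

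Of 9 further PRC2 partners 8 were described. Of these 0 were at least 2-fold higher, against 5.99% of all described genes, and 0 at least 2-fold lower, against 6.88%. JARID2, which recruits PRC2, had the highest ratio at 17.4 TPM with JIB-04 and 9.06 TPM with DMSO, a log2 ratio of 0.87. PHF19, a Polycomb-like subunit, had the lowest ratio at 46.9 TPM with JIB-04 and 77.8 TPM with DMSO, a log2 ratio of -0.72. Genes of dividing cells were also lower in the JIB-04 library. Of 8 proliferation markers all 8 had a log2 ratio below 0. Past 2-fold downward were 5 (62.5%), against 6.88% of all described genes. The median of the 8 markers was -1.08 on the log2 scale, and their summed level was 476 TPM with JIB-04 and 1077 TPM with DMSO. TOP2A had the lowest ratio at 51.3 TPM with JIB-04 and 170 TPM with DMSO, and MCM2 the least changed at 58.9 TPM with JIB-04 and 74.8 TPM with DMSO. The part of proliferation in the levels of EZH2, SUZ12, SUV39H1, NSD2 and KMT5A was not tested.

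**Figure D3:**
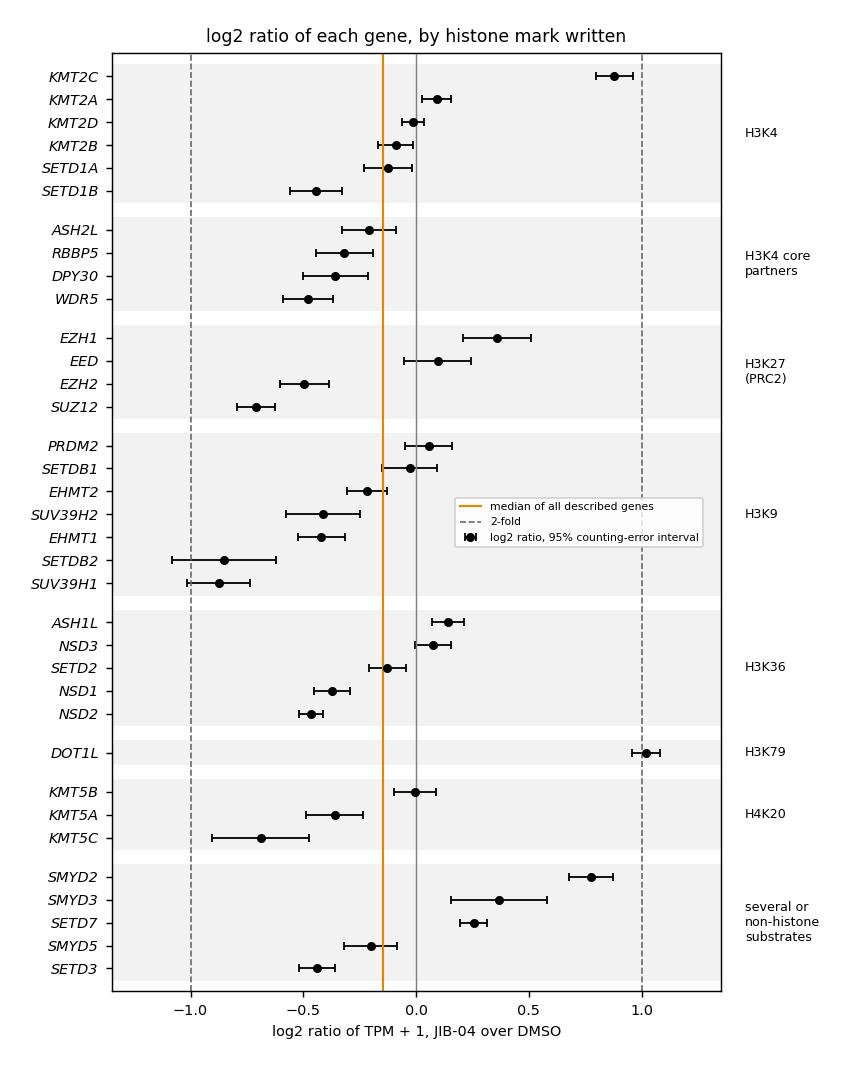
The log2 ratio of TPM + 1, JIB-04 over DMSO, of each gene by mark, with the 95% interval for counting error as bars, the median of all described genes (-0.15) as a solid coloured line and 2-fold as dashed lines. DOT1L at 1.02 sits on the upper 2-fold line, SUV39H1 at -0.87 and SETDB2 at -0.85 lie nearest the lower one, and the 4 H3K4 core partners all lie left of 0.

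Among marks with several writers, H3K9 had the lowest median log2 ratio, -0.41 over 7 genes, close to -0.36 over the 3 H4K20 genes. The order of H3K9 and H4K20 was not tested. SUV39H1, which places the 3 methyl groups of pericentric heterochromatin, had 20.9 TPM with JIB-04 and 39.1 TPM with DMSO, a log2 ratio of -0.87 (-1.02 to -0.74), the lowest of all 35. SUV39H2, its paralog, had 14.9 TPM with JIB-04 and 20.1 TPM with DMSO. The ratio of SUV39H1 to SUV39H2 was 1.40 with JIB-04 and 1.94 with DMSO, a ratio of 0.722 between libraries (0.616 to 0.846). SETDB2 was the least abundant of the 35, with 1.93 TPM with JIB-04 and 4.28 TPM with DMSO, a log2 ratio of -0.85 (-1.08 to -0.62). Without the pseudocount its TPM ratio was 0.451, past 2-fold. The difference lay in NM_001320699 and NM_031915, which were both at 0 in the JIB-04 library, against 1.60 TPM for NM_001320699 and 0.961 TPM for NM_031915 in the DMSO library, whereas the most abundant transcript, NM_001160308, had 1.93 TPM with JIB-04 and 1.72 TPM with DMSO, a log2 ratio of 0.11. SETDB2 shares 41.3% of its exonic bases with the read-through gene SETDB2-PHF11 on the same strand, which was listed at 0 TPM with JIB-04 and 0.106 TPM with DMSO, so its level is uncertain. SETDB1, which silences retroelements with TRIM28, had 23.3 TPM with JIB-04 and 23.8 TPM with DMSO, with an interval that spanned 0. EHMT1 and EHMT2 work as a pair in euchromatin. EHMT1 had 21.8 TPM with JIB-04 and 29.5 TPM with DMSO, and EHMT2 had 43.7 TPM with JIB-04 and 51.0 TPM with DMSO. PRDM2, a PR-domain protein that binds RB, had 20.4 TPM with JIB-04 and 19.6 TPM with DMSO. Its transcript NM_001007257, with 4 exons from a start at position 14075876, took 89.5% of the gene with JIB-04 and 93.8% with DMSO. The longer NM_012231, with 10 exons from position 14031350, had 1.99 TPM with JIB-04 and 1.15 TPM with DMSO. Whether the shorter form encodes the PR domain was not examined. The 7 genes summed to 147 TPM with JIB-04 and 187 TPM with DMSO.

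Among 11 partners and readers of H3K9 methylation, 3 (27.3%) were at least 2-fold lower with JIB-04, against 6.88% of all described genes. At least 2-fold higher were 0, against 5.99% of all described genes. ATF7IP, which stabilises SETDB1, had the lowest ratio at 4.97 TPM with JIB-04 and 13.8 TPM with DMSO, a log2 ratio of -1.31. CBX1, a form of heterochromatin protein 1, had 35.8 TPM with JIB-04 and 87.7 TPM with DMSO. MPHOSPH8, the subunit of the HUSH complex that binds the mark, had 22.5 TPM with JIB-04 and 47.6 TPM with DMSO. CBX5, another form of heterochromatin protein 1, had the highest ratio at 21.1 TPM with JIB-04 and 19.1 TPM with DMSO. The median log2 ratio of the 11 was -0.29.

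The H3K36 enzymes kept to a narrow range. NSD2, which places 2 methyl groups and is raised in some myelomas, had 59.8 TPM with JIB-04 and 83.0 TPM with DMSO, a log2 ratio of -0.47 (-0.52 to -0.41). NSD1, the gene mutated in Sotos syndrome, had 14.6 TPM with JIB-04 and 19.2 TPM with DMSO, and the ratio of NSD2 to NSD1 differed by 0.948-fold (0.884 to 1.02) between libraries, the 1 pair of 10 whose interval spanned 1. NSD3 had 51.3 TPM with JIB-04 and 48.7 TPM with DMSO, and its short form without the catalytic domain took 69.0% of the gene with JIB-04 and 68.9% with DMSO. SETD2, the main enzyme that adds the third methyl group to H3K36, had 23.3 TPM with JIB-04 and 25.5 TPM with DMSO. ASH1L, a Trithorax-group enzyme, had 24.2 TPM with JIB-04 and 21.9 TPM with DMSO, a log2 ratio of 0.14 (0.07 to 0.21). The 5 genes summed to 173 TPM with JIB-04 and 198 TPM with DMSO.

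The H4K20 enzymes act in sequence, KMT5A placing the first methyl group in mitosis and KMT5B and KMT5C the next ones. KMT5C had 10.1 TPM with JIB-04 and 16.9 TPM with DMSO, a log2 ratio of -0.69 (-0.91 to -0.47), and 1 of its 9 exons was higher with JIB-04. KMT5B had 47.2 TPM with JIB-04 and 47.4 TPM with DMSO. The ratio of KMT5B to KMT5C was 4.66 with JIB-04 and 2.80 with DMSO. KMT5A had 28.8 TPM with JIB-04 and 37.3 TPM with DMSO, a log2 ratio of -0.36.

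SMYD2 led the 5 SET enzymes that act on several or on non-histone proteins. SMYD2 (chr1:214454565-214510477, plus strand), which methylates p53 among others, had 124 TPM with JIB-04 and 72.0 TPM with DMSO, a log2 ratio of 0.78 (0.68 to 0.87), and was the most abundant member with JIB-04. All 12 of its exons were higher with JIB-04, by 1.18-fold in the last exon to 2.06-fold in exon 8. SMYD3, which methylates the kinase MAP3K2 in the cytoplasm, had 21.6 TPM with JIB-04 and 16.5 TPM with DMSO, a log2 ratio of 0.37. SETD7, which places a single methyl group on H3K4 and on many other proteins, had 61.8 TPM with JIB-04 and 51.6 TPM with DMSO, a log2 ratio of 0.26. SETD3, the histidine methyltransferase of actin, had 72.0 TPM with JIB-04 and 97.8 TPM with DMSO, a log2 ratio of -0.44. SMYD5 had 37.7 TPM with JIB-04 and 43.4 TPM with DMSO, and 4 of its 13 exons were higher with JIB-04. The 5 genes summed to 317 TPM with JIB-04 and 281 TPM with DMSO.

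Ratios within 10 pairs of related enzymes do not depend on how the libraries were scaled. In 9 of 10 pairs the counting interval of the difference lay off 1, and 1 pair, SETDB1 over SETDB2, passed 2-fold. No other pairs of genes were compared, so these counts have no background. For single genes the interval lay above 0 in 27.7% of all described genes and below 0 in 46.2%. The level of SETDB2 is uncertain, as given above. SETDB1 exceeded SETDB2 by 12.05-fold with JIB-04 and by 5.54-fold with DMSO, 2.17-fold different (1.72 to 2.76). The ratio of SMYD2 to SMYD3 was 5.75 with JIB-04 and 4.36 with DMSO, and that of SETD1A to SETD1B was 1.74 with JIB-04 and 1.36 with DMSO. The smaller differences were 1.14-fold for KMT2A over KMT2B and 0.861-fold for EHMT1 over EHMT2.

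Transcripts differed more than gene levels in some members. Of the 25 members with several annotated transcripts, 6 had a transcript whose share of the gene differed by at least 15 percentage points between libraries and a mean gene level of at least 5 TPM. They were KMT5A, NSD2, SUV39H2, NSD1, KMT5B and ASH2L. SETD2 lay just outside, at 14.9994 points. StringTie divides reads of shared exons among transcripts by a model, so these shares have no interval. The same count was not made over all genes with several transcripts, so it does not set these members apart.

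KMT5A had the largest such difference. Its non-coding transcript NR_136910 had 14.8 TPM with JIB-04 and 2.06 TPM with DMSO, 51.3% of the gene with JIB-04 and 5.52% with DMSO. It differs from NM_020382, the most abundant coding transcript with DMSO, by 1 added exon of 113 bases at chr12:123889186-123889298. All other KMT5A transcripts together had 14.0 TPM with JIB-04 and 35.2 TPM with DMSO, so the coding transcripts were further apart between libraries than the gene total.

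In StringTie's division, the shares of transcripts from each start differed between libraries for SUV39H2 and NSD2. For SUV39H2, the 3 transcripts from the upstream start at position 14920782 of chromosome 10 had 14.9 TPM with JIB-04 and 5.77 TPM with DMSO, 99.97% of the gene with JIB-04 and 28.7% with DMSO. The non-coding NR_034181, one of these 3, took 48.1% with JIB-04 and 22.9% with DMSO. The starts lie within one stretch of overlapping first exons, which makes the division among them uncertain. For NSD2, the transcript NM_001042424, with its first exon at chr4:1873123-1873269, had 24.8 TPM with JIB-04 and 56.7 TPM with DMSO, 41.4% of the gene with JIB-04 and 68.3% with DMSO. The other NSD2 transcripts, most of them from a start at position 1894509, had 35.1 TPM with JIB-04 and 26.3 TPM with DMSO.

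NSD1, KMT5B and ASH2L changed less. NM_172349 of NSD1, which starts upstream and lacks part of a long early exon, took 24.2% of the gene with JIB-04 and 6.24% with DMSO. NM_017635 of KMT5B took 19.99% with JIB-04 and 3.24% with DMSO, but it is 1 of 3 transcripts with the long last exon, which together took 32.1% with JIB-04 and 22.9% with DMSO. Another of these, NM_001300908, took 11.6% with JIB-04 and 18.6% with DMSO. For ASH2L, transcripts with the upstream first exon had 23.1 TPM with JIB-04 and 21.5 TPM with DMSO, whereas those from the other start had 8.18 TPM with JIB-04 and 14.8 TPM with DMSO.

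**Figure D4:**
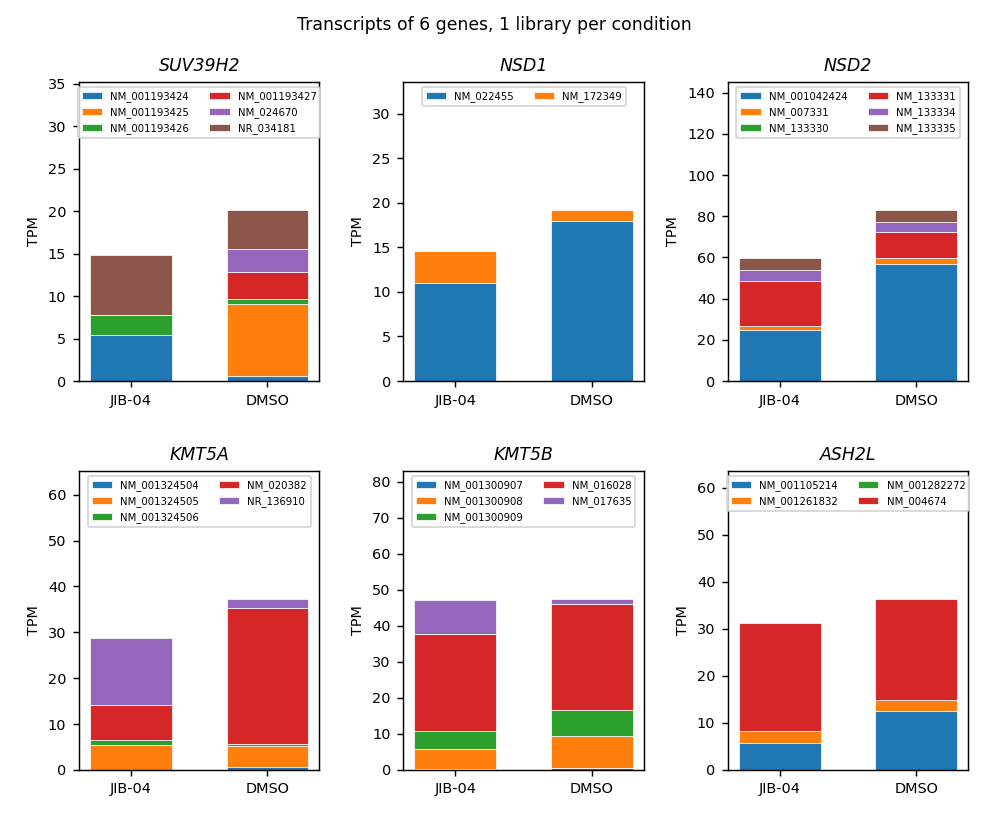
Level of each annotated transcript (TPM, stacked to the gene total) of the 6 genes whose transcript shares differed by at least 15 percentage points, with JIB-04 on the left and DMSO on the right of each panel, 1 library each. The non-coding transcript of KMT5A takes 51.3% of the JIB-04 bar and 5.52% of the DMSO bar, and the upstream-start transcript of NSD2 takes 41.4% of the JIB-04 bar and 68.3% of the DMSO bar.

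Writers were set beside the Jumonji demethylases, which oppose some of them. Of 20 Jumonji demethylase genes 19 were described, 7 of them (36.8%) at least 2-fold higher with JIB-04, against 5.99% of all described genes. At least 2-fold lower were 0, against 6.88% of all described genes. The summed level of the demethylases was 808 TPM with JIB-04 and 433 TPM with DMSO. KDM3A, an H3K9 demethylase, had the highest ratio at 160 TPM with JIB-04 and 34.2 TPM with DMSO, and RIOX1 the lowest ratio at 14.4 TPM with JIB-04 and 19.9 TPM with DMSO. The median log2 ratio was 0.46 over the demethylases and -0.20 over the 35 writers and partners. DOT1L, KMT2C and SMYD2 were the 3 writers whose log2 ratio exceeded that demethylase median.

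**Figure D5:**
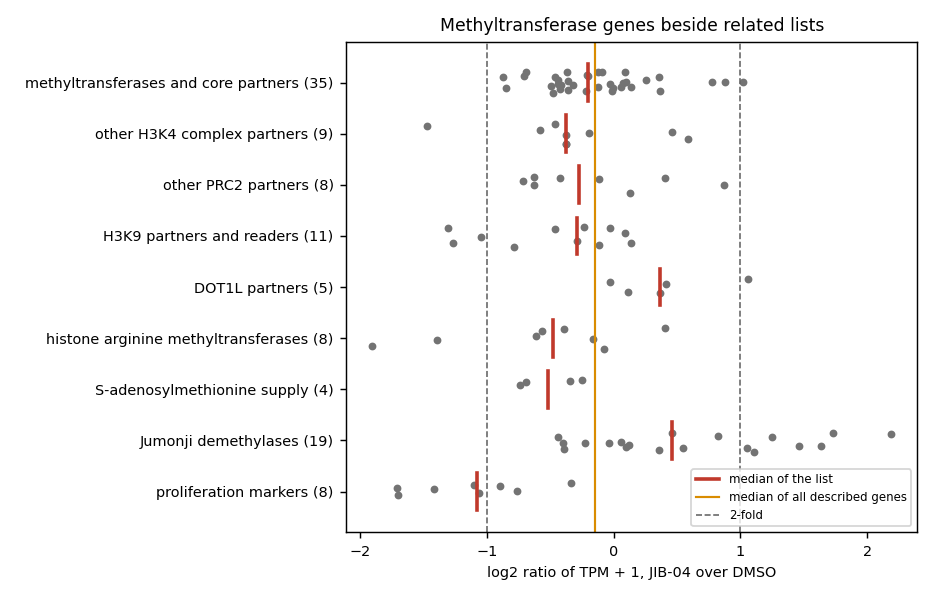
The log2 ratio of TPM + 1, JIB-04 over DMSO, of each described gene (points, spread vertically for display) in 9 lists, with the list's median as a thick bar, the median of all described genes as a solid line and 2-fold as dashed lines. The 35 methyltransferase and core partner genes centre on -0.20, the Jumonji demethylases on 0.46 and the proliferation markers on -1.08.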

How the data were processed

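RNA of PLC/PRF/5 cells was sequenced in 2 libraries, 1 per condition, grouped by their titles. Per the submitters' processing notes the tools were StringTie 1.3.3b for abundances, HISAT2 2.0.5 and Bowtie2 2.2.6 for alignment, and FastQC 0.11.5 and Trimmomatic 0.32 for reads, with hg19 as the build. The authors deposited, for each annotated RefSeq transcript, TPM, FPKM and per-base coverage values, without read counts. Per the file headers StringTie used annotated transcripts only, with a strand setting.

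Gene TPM is the sum over transcripts. Symbols came from RefSeq (GRCh38.p14, used for names and promoters only), which matched 27559 of 27685 IDs. Coordinates of genes and exons are hg19. The log2 ratio uses a pseudocount of 1, which understates changes of weak genes, and genes with at least 1 TPM in either library were described. Calls are by 2-fold. To estimate fragments, coverage was multiplied by length and divided by 202 bases, the commonest value among weak genes, because the length of reads was not stated in the labels or files used. Of weak genes, 28.1% with JIB-04 and 29.1% with DMSO lay within 2 bases of a whole multiple, so the estimate is rough. Intervals are exact conditional binomial intervals at 95%. With 1 library per condition no test was made, and the shallower JIB-04 library limits the precision more.

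The members and lists were chosen with earlier results of these data known. All members are named. Of each further list the highest and lowest gene with a mean of at least 5 TPM are named, and transcripts where a share differed by at least 15 points. CBX1, MPHOSPH8 and the division of KMT2C exons fall outside this rule and were chosen after their values were seen, as were the cell type markers named beside the highest and lowest of their list and the comparison of early and late exons. Alternatives were pseudocounts of 0.1 and 5, no filter or at least 5 TPM, FPKM, a shift that centres genes of at least 10 TPM in both libraries at 0, the most abundant transcript, and 1.5-fold and 3-fold thresholds. The scripts were tested on simulated data. Python 3.11.15, numpy 2.4.6, pandas 2.3.3, SciPy 1.17.1 and matplotlib 3.10.9 were used.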

Additional observations from a re-analysis of the deposited data

How the results depend on the processing

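No paired analysis was possible because each condition had 1 library. The count of members at least 2-fold higher with JIB-04 was 1, and became 0 with a pseudocount of 5, with FPKM and at 3-fold, 2 when well expressed genes were centred at 0 (DOT1L and KMT2C), and 3 at 1.5-fold. The count at least 2-fold lower was 0, and became 1 with a pseudocount of 0.1, where SETDB2 had a log2 ratio of -1.11, 2 with the most abundant transcript (NSD2 at -1.16 and KMT5A at -1.84), and 4 at 1.5-fold. With a pseudocount of 5 the log2 ratio of DOT1L was 0.95. The median log2 ratio of the members stayed below 0 in every alternative run, between -0.22 and -0.05. The median over all described genes was also below 0, between -0.16 and -0.10, except without a filter (0) and with well expressed genes centred (0.003). The members' median minus that of all genes was -0.20 without a filter. In the other runs it lay between -0.08 and -0.003, so most of the sign was shared with all genes. Scaling to the median of well expressed genes changed the sign of 6 members, KMT2B, KMT2D, SETD1A, SETDB1, SETD2 and KMT5B, all of them between 0.02 and 0.14 after it. The most abundant transcript in place of the gene sum changed the sign of 6 others, KMT2A, EED, SUV39H2, SETDB2, PRDM2 and ASH2L, of which SUV39H2 moved furthest, to 0.54. The causes of these changes were not tested, apart from the arithmetic of each setting. With 1 library per condition, a difference between cultures cannot be told apart from the treatment, and the depth limits weak genes such as SETDB2 most.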

Other observations

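Histone arginine methyltransferases use the same methyl donor as the lysine enzymes. Of 9 genes 8 were described, and 2 of these (25%) were at least 2-fold lower with JIB-04, against 6.88% of all described genes. At least 2-fold higher were 0, against 5.99%, and the median log2 ratio was -0.48. PRMT3, which methylates a ribosomal protein, had the lowest ratio with 6.40 TPM with JIB-04 and 26.7 TPM with DMSO, a log2 ratio of -1.90. PRMT6, which methylates H3R2, had 10.6 TPM with JIB-04 and 29.5 TPM with DMSO, a log2 ratio of -1.39, and was chosen after its values were seen. PRMT2 had the highest ratio, with 96.9 TPM with JIB-04 and 73.1 TPM with DMSO.

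The 4 genes that make S-adenosylmethionine or clear its product all had a log2 ratio below 0, with a median of -0.52. The median over all described genes was also below 0, at -0.15. Of the 4 genes 0 were at least 2-fold higher, against 5.99% of all described genes, and 0 at least 2-fold lower, against 6.88%. MAT1A, the adult liver form of the synthetase, had 19.7 TPM with JIB-04 and 33.6 TPM with DMSO, a log2 ratio of -0.74. MAT2A, the form of most other tissues, had 231 TPM with JIB-04 and 274 TPM with DMSO, a log2 ratio of -0.25, and was the more abundant of both forms in each library.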
